A study of Mus musculus with 19 samples.

Results

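The matrix metalloproteinases (MMPs), the ADAMTS proteases with their ADAMTS-like relatives, and the tissue inhibitors of metalloproteinases (TIMPs) were described in mouse skin as 1 family of genes. Members were the protein-coding genes of the deposited table whose symbol begins with Mmp, Adamts or Timp followed by a number, or with Adamtsl and a number. The rule found 50 of the 50686 genes in the table, of which 22 encode MMPs, 19 ADAMTS proteases, 5 ADAMTS-like proteins and 4 TIMPs. Of the 50 members, 38 reached 1 TPM in at least 3 of 19 mice and were tested (16 MMPs, 13 ADAMTS, 5 ADAMTS-like and 4 TIMPs). TPM is a level of transcript corrected for gene length and scaled to the same total in every mouse.

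The skin came from irradiated female BALB/c mice, which received bone marrow transplantation (BMT) at 8 to 12 weeks of age, and was taken 42 days later. Mice with Scl-cGVHD, the sclerodermatous form of chronic graft-versus-host disease, had received T cell-depleted bone marrow and splenocytes of male B10.D2 donors, which share the major histocompatibility haplotype of BALB/c but differ at minor loci. Syngeneic mice had received male BALB/c cells, so that irradiation and cell transfer were common to both. A neutralizing monoclonal antibody (mAb) to the chemokine CX3CL1, or control IgG, was injected into the abdomen from day 7 to day 35. The groups were Scl-cGVHD mice given control IgG (n = 3), mAb at 0.5 mg (n = 3) or mAb at 1 mg (n = 5), and syngeneic mice given mAb (n = 5) or control IgG (n = 3). The dose in the syngeneic mAb group is not given in the labels. Each library was 1 mouse and whole skin, so the model measures a mixture of cells from host and donor, and fewer cells of a type and less RNA per cell cannot be told apart. Values of single mice are given below in the order of their numbers: ID_1535, ID_1537 and ID_1538 for Scl-cGVHD IgG, ID_1539 to ID_1541 for 0.5 mg, ID_1542 to ID_1546 for 1 mg, ID_1530 to ID_1534 for syngeneic mAb, and ID_1527 to ID_1529 for syngeneic IgG.

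MMPs and ADAMTS proteases are zinc enzymes that cut proteins of the extracellular matrix. MMPs are made as inactive precursors and, between them, cleave fibrillar collagen, basement membrane, elastin and gelatin. ADAMTS proteases cleave proteoglycans such as aggrecan and versican or remove the amino-terminal propeptide of fibrillar procollagens, while ADAMTS-like proteins have no protease domain and bind matrix such as fibrillin. TIMPs bind the active site of these enzymes, and the balance of both sets how quickly matrix turns over in wounds and in scarring skin.

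The libraries held 22699740 to 38841010 read pairs (median 29298146), known only as a range because the summary does not name mice. The 5 markers of basal and follicle keratinocytes, which define skin, summed to 6831 to 19818 TPM in Scl-cGVHD mice and 5198 to 7850.1 TPM in syngeneic mice. Several mice stood apart from their groups. Scl-cGVHD IgG mouse ID_1537 had 33434 TPM over the 10 neutrophil markers, against 46 to 6193 TPM in the other 10 Scl-cGVHD mice. Mouse ID_1540, at 0.5 mg, had 7673 TPM over the 8 fibroblast markers and 931 TPM over the 9 activated keratinocyte markers. Those values lay within the syngeneic range for the fibroblast list (3934 to 11907 TPM) and below it for the keratinocyte list (979.6 to 3042 TPM). Apart from ID_1537 and ID_1540, the Scl-cGVHD mice held 231 to 1085 TPM of the fibroblast list and 2818 to 34648 TPM of the keratinocyte list. Macrophage markers (10 of 10 measured) summed to 2291 to 10035 TPM in Scl-cGVHD and 1184 to 1998 TPM in syngeneic mice, with none of the 10 at 0 in either. Syngeneic mAb mice ID_1533 and ID_1534 held 12996 and 8287 TPM of hair shaft keratins, against 10.2 to 1421 TPM in the other 6 syngeneic mice, and less of the fibroblast list (3934 and 4631 TPM). The 5 adipocyte markers summed to 159 to 732 TPM in Scl-cGVHD mice other than ID_1538 (3210.0 TPM) and ID_1540 (1897 TPM), against 2068 to 3261 TPM in syngeneic mice. Of the 5, 3 fell in IgG and 5 in mAb mice, where 17.9% and 28.3% of all tested genes fell. The 8 skeletal muscle markers summed to 4714 to 25512 TPM in Scl-cGVHD mice, against 6036 to 28898 TPM in syngeneic mice. Of the 8, 4 fell in IgG and 0 in mAb mice, beside the same shares of all genes. The part of these cell types in the results below was not tested except where a value is given.

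Of the 50 members, 9 MMP genes lie within 427072 bases of chromosome 9 (7272514 to 7699585, GRCm38), in the order Mmp13, Mmp12, Mmp1b, Mmp3, Mmp10, Mmp8, Mmp27, Mmp20 and Mmp7. The 3 largest increases of the family in Scl-cGVHD IgG mice lay in this cluster (Mmp13, Mmp8 and Mmp12), and so did Mmp27, which was lower in Scl-cGVHD, so the promoters of 5 of its members are shown. RefSeq windows of GRCm38.p6, from 250 bases before to 50 bases after a start site, were found for 35 of 50 members. The word TGAGTCA and its reverse complement TGACTCA, which the Fos and Jun dimers of AP-1 bind, was searched on both strands. It stood in at least 1 window of 6 of the 9 cluster genes (Mmp13, Mmp12, Mmp1b, Mmp3, Mmp10 and Mmp7) and of 0 of the 26 other members with a window. Of all 32851 windows, counted singly and not by gene, 5.2% held it. Mmp12 and Mmp7 each also had a window without it. A match is a description of letters and says nothing of binding in these mice. The windows below all lie on the plus strand: chr9:7272264-7272563 (Mmp13), chr9:7347124-7347423 (Mmp12), chr9:7502092-7502391 (Mmp10), chr9:7558179-7558478 (Mmp8) and chr9:7571146-7571445 (Mmp27). Capitals mark the word, which starts 35 bases before the start site in Mmp13, 44 in Mmp12 and 63 in Mmp10, and is not in these windows of Mmp8 and Mmp27. A further Mmp12 window, at chr9:7344147-7344446, holds no such word. Mmp3, whose window is not shown, holds the word 46 bases before its start site and did not rise in IgG or mAb mice.
Mmp13: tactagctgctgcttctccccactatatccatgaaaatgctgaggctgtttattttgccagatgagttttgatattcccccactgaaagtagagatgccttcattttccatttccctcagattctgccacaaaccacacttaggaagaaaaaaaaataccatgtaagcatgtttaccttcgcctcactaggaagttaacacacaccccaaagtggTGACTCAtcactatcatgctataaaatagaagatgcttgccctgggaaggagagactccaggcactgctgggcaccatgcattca
Mmp12: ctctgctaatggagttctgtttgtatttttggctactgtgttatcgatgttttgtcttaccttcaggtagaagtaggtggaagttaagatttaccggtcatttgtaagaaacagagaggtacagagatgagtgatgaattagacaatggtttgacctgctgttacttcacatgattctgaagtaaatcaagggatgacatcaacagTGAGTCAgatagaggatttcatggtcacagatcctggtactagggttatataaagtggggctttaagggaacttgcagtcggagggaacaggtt
Mmp10: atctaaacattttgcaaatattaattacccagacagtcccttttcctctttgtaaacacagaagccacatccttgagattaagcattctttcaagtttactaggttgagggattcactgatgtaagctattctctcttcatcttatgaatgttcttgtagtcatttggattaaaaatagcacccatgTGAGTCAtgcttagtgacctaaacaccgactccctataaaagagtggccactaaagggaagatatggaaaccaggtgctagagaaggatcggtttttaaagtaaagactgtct
Mmp8: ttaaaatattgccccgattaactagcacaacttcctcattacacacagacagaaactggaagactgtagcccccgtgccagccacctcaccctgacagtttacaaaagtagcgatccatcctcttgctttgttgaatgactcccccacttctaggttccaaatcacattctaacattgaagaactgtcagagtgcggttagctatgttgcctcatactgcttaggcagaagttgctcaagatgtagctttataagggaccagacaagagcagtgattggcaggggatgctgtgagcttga
Mmp27: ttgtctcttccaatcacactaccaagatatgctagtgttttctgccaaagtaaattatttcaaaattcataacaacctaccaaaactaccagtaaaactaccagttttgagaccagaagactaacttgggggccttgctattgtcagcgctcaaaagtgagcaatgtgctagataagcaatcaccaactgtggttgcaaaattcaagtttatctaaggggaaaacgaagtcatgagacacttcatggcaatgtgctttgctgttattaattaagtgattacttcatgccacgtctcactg

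**Figure D1:**
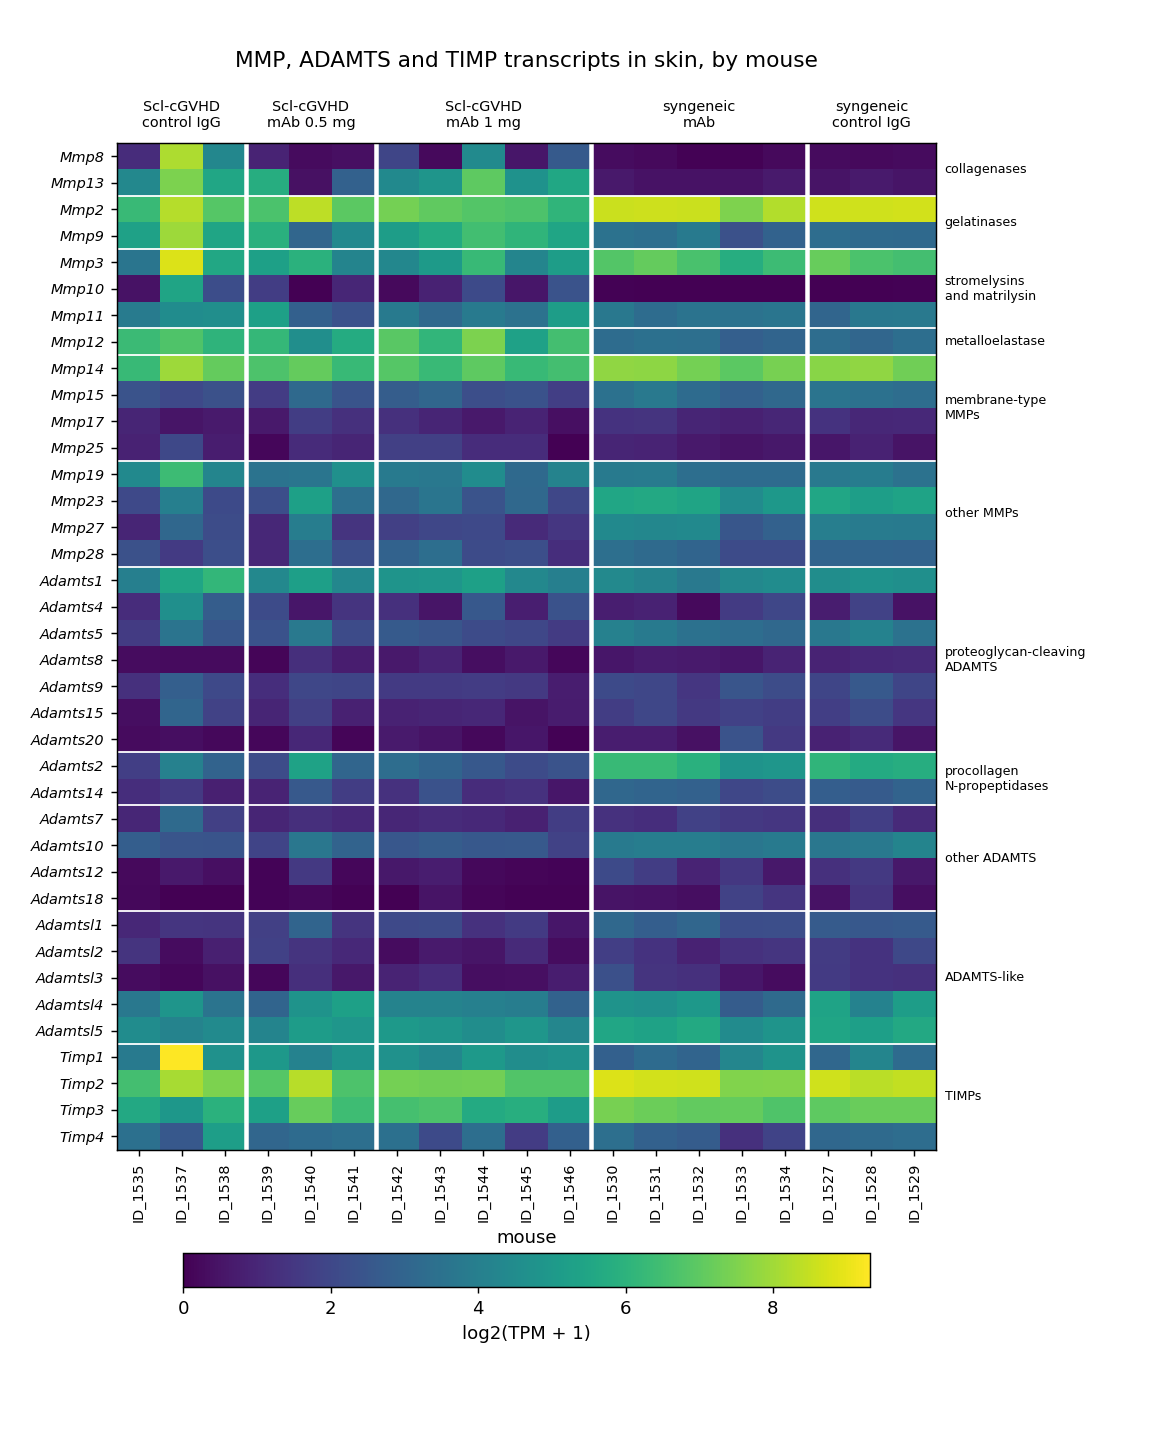
Colour gives log2(TPM + 1) of the 38 tested members (rows, grouped by role) in the skin of each of 19 mice (columns, grouped by treatment). Mmp12, Mmp13 and Mmp9 are bright in Scl-cGVHD mice, Mmp2, Mmp23, Mmp27 and Adamts2 are bright in syngeneic mice and in ID_1540, and ID_1537 is bright for Mmp8, Mmp3 and Timp1.

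The first question was which members differ between Scl-cGVHD and syngeneic skin. In Scl-cGVHD IgG against syngeneic IgG mice, 6 of the 38 members rose, 11 fell and 21 did not pass limma's test at an adjusted p under 0.05, where 6.84% of all 16350 tested genes rose and 17.9% fell. The 6 were Mmp8, Mmp9, Mmp10, Mmp12, Mmp13 and Mmp19, all MMPs, and the 11 were Mmp2, Mmp15, Mmp23, Adamts2, Adamts8, Adamts10, Adamts14, Adamtsl1, Adamtsl3, Adamtsl5 and Timp3. The median fold change on the log2 scale of the members was -0.69, beside -0.33 over all genes. All fold changes are on the log2(TPM + 1) scale, which understates changes of low levels. In mAb-treated mice, 1 mg Scl-cGVHD against syngeneic, 3 members rose (Mmp9, Mmp12 and Mmp13) and 16 fell, where 7.99% of genes rose and 28.3% fell. Over all 11 Scl-cGVHD against all 8 syngeneic mice, which include both sets above, 7 rose and 20 fell, where 10.5% of genes rose and 43.7% fell. This comparison sets the mean of the Scl-cGVHD group means against the mean of the syngeneic group means. Groups on the same side thus weigh alike, whatever their number of mice. The all-gene median of -0.33 lay between -0.06 and 0.03 after median-ratio, quantile or trimmed-mean scaling. Median-ratio, quantile and trimmed-mean scaling left 36, 38 and 36 members tested. In that order, 7 and 7, 7 and 8, and 7 and 7 members rose and fell in IgG mice, where 11.2% and 10.3%, 10.5% and 11.6%, and 12% and 9.62% of all genes did. In mAb mice 4 and 11, 3 and 12, and 4 and 11 members did, beside 15.1% and 13.9%, 13% and 14.4%, and 16.6% and 12.9% of all genes. Over all mice 8 and 14, 9 and 15, and 8 and 14 did, beside 22% and 21.3%, 18.3% and 23.1%, and 23.1% and 20.3%. In IgG mice the counts leaned on single mice: 3 members rose without any 1 of ID_1527, ID_1528, ID_1529 and ID_1537 and 10 rose without ID_1535, while 5 fell without ID_1527 and 6 without any 1 of ID_1528, ID_1529 and ID_1538. Of all genes, 4.01% then rose and 8.41% fell without ID_1527, and 4.88% and 8.95% without ID_1528. The all-gene shares thus fell too, from 6.84% and 17.9% with all mice. No such share is given for the other mice left out, so those counts do not show a change particular to the members. In mAb mice 6 members rose without ID_1537, whose spread enters the shared error. Without ID_1537 and ID_1540 together, which was tried after seeing the data, 3 members rose and 14 fell in IgG mice.

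By single mice, the IgG groups did not overlap for 7 members that were higher and 17 that were lower in Scl-cGVHD, where 10.4% of all genes lay wholly above and 41% wholly below. The mAb groups (1 mg) did not overlap for 4 higher and 10 lower members, where 5.96% of all genes lay above and 20.6% below. Some members passed the level filter only through the side on which they were high, so that their place among the tested members is not independent of the comparison. Mmp8, Mmp10, Mmp13 and Mmp25 reached 1 TPM in 0 of 8 syngeneic mice and passed through Scl-cGVHD mice. Adamts12, Adamts18, Adamts20 and Adamtsl3 did so in 2 or fewer of 11 Scl-cGVHD mice and passed through syngeneic mice, and Adamts8 needed mice of both.

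**Figure D2:**
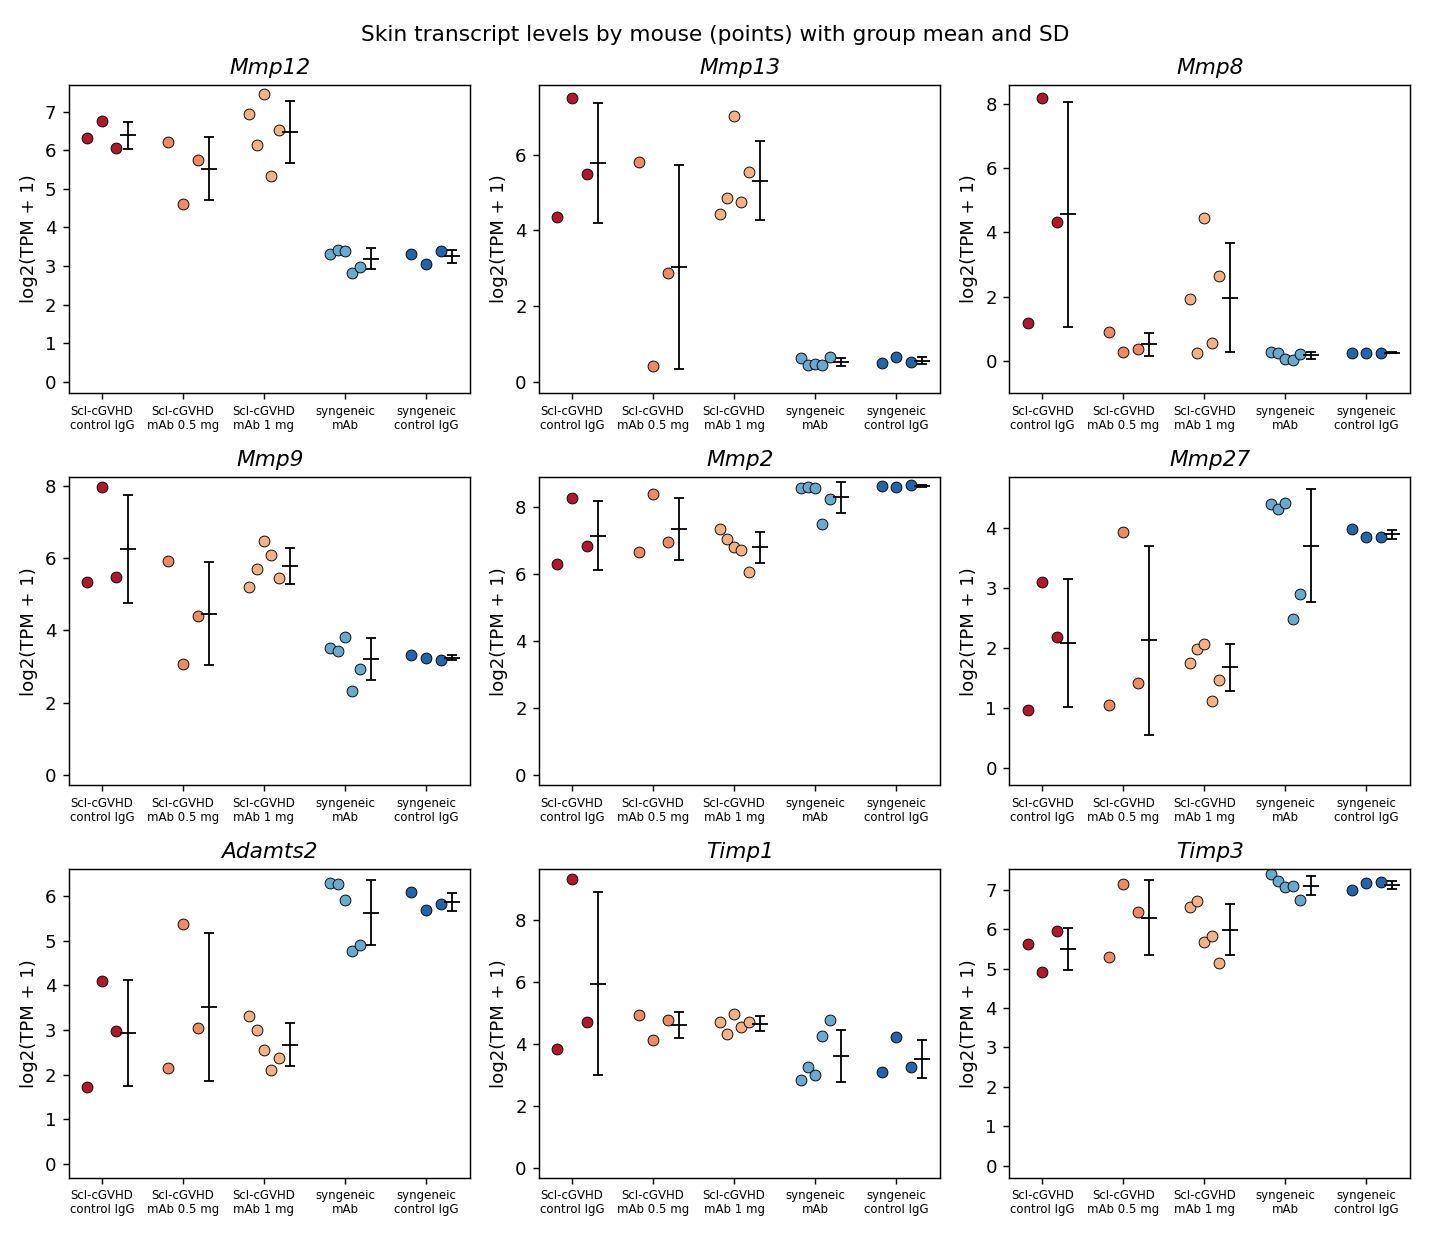
Each point is 1 mouse, with log2(TPM + 1) on the vertical axis and the 5 groups on the horizontal axis, and the bar beside each group gives its mean and SD. The Scl-cGVHD mice lie above the syngeneic mice for Mmp12 without overlap, and the ID_1540 point lies with the syngeneic mice for Mmp13, Mmp2, Mmp27 and Adamts2.

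Mmp12, the metalloelastase best known from macrophages, stood at 79.6, 107 and 66 TPM in Scl-cGVHD IgG mice, against 8.94, 7.34 and 9.43 TPM in syngeneic IgG mice. Under the mAb, Mmp12 was at 72.7, 23.5 and 52.6 TPM at 0.5 mg and at 122, 69.2, 175, 39.3 and 91.1 TPM at 1 mg, against 8.89, 9.74, 9.56, 6.09 and 6.93 TPM in syngeneic mAb mice. Mmp12 was the only 1 of the 38 members in which all 11 Scl-cGVHD mice lay above all 8 syngeneic mice, a pattern that 1.9% of all genes showed. Its fold change on the log2 scale was 3.13 (standard error 0.43, adjusted p = 0.000351) in IgG mice and 3.29 (standard error 0.33, adjusted p = 8.16e-06) in mAb mice. The gene overlaps the end of Mmp1b on the other strand. The library kit keeps strand, but whether the quantification used it is not given in the sources used here, and Mmp1b was listed at no more than 2.73 TPM in any mouse.

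Mmp13, the main collagenase of fibrillar collagen in mice, was listed at 19.4, 178 and 44.2 TPM in Scl-cGVHD IgG mice, against 0.41, 0.59 and 0.44 TPM in syngeneic IgG mice. Mmp13 under the mAb was at 54.6, 0.35 and 6.37 TPM at 0.5 mg and 20.6, 27.8, 129, 25.7 and 45.5 TPM at 1 mg, against 0.56, 0.37, 0.38, 0.36 and 0.58 TPM in syngeneic mAb mice. The transcript was thus near absent from all 8 syngeneic mice and from ID_1540, and every other Scl-cGVHD mouse lay above all syngeneic mice. Its fold change on the log2 scale was 5.21 (standard error 0.99, adjusted p = 0.00267) in IgG mice and 4.78 (standard error 0.76, adjusted p = 0.00039) in mAb mice.

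Mmp8, the collagenase that neutrophils store, was at 1.27, 288 and 18.9 TPM in Scl-cGVHD IgG mice, against 0.2, 0.18 and 0.2 TPM in syngeneic IgG mice. The mAb groups had Mmp8 at 0.88, 0.21 and 0.29 TPM (0.5 mg) and 2.84, 0.18, 20.9, 0.49 and 5.30 TPM (1 mg), against 0.23, 0.18, 0.05, 0.03 and 0.17 TPM in syngeneic mAb mice. Mmp8 was high in ID_1537 above all, lower in ID_1544, ID_1538 and ID_1546, and close to the syngeneic mice in ID_1540, ID_1541 and ID_1543. It rose in IgG mice (log2 fold change 4.30, standard error 1.23, adjusted p = 0.0205) and did not pass in mAb mice (log2 fold change 1.80, standard error 0.95, adjusted p = 0.142). The call in IgG mice was lost without ID_1537, when the log2 fold change was 2.49 (adjusted p = 0.0866), without any 1 of the 3 syngeneic IgG mice (adjusted p of up to 0.0866 over these 4), and when the fit held only the compared groups. With a pseudocount of 0.1 in place of 1 it was 6.06.

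Mmp10, a stromelysin of wounded epithelium, was listed at 0.37, 42.4 and 3.62 TPM in Scl-cGVHD IgG mice, against 0, 0 and 0.04 TPM in syngeneic IgG mice. Mmp10 under the mAb was at 2.19, 0 and 1.02 TPM at 0.5 mg and 0.17, 0.87, 3.27, 0.46 and 4.20 TPM at 1 mg, against 0.04, 0, 0, 0 and 0 TPM in syngeneic mAb mice. It was listed at 0 or near 0 in every syngeneic mouse and in ID_1540, and ID_1537 held far more than any other mouse. Mmp10 rose in IgG mice (log2 fold change 2.68, standard error 0.85, adjusted p = 0.0314) and did not pass in mAb mice (log2 fold change 1.22, standard error 0.66, adjusted p = 0.15). The call was lost without any 1 of ID_1527, ID_1528, ID_1529, ID_1537 and ID_1538, with an adjusted p of up to 0.141, and when the fit held only the compared groups. Its value was 1.31 without ID_1537 and 5.23 with a pseudocount of 0.1.

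Mmp3, stromelysin 1, lies between Mmp12 and Mmp10 and was singled out after its values were seen. It was at 11.2, 451 and 47.4 TPM in Scl-cGVHD IgG mice, against 140.1, 102 and 92 TPM in syngeneic IgG mice, and did not pass (log2 fold change -0.78, standard error 0.89, adjusted p = 0.522). Mmp3 was at 38.6, 60.0 and 17.6 TPM at 0.5 mg and 19, 32.5, 76.9, 18 and 35.7 TPM at 1 mg, against 113, 137, 98.2, 55.3 and 82.1 TPM in syngeneic mAb mice (log2 fold change -1.53, standard error 0.69, adjusted p = 0.0908). Every Scl-cGVHD mouse but ID_1537, ID_1540 and ID_1544 lay below every syngeneic mouse, and ID_1537 lay above all other mice. Over all mice Mmp3 fell just past the threshold (log2 fold change -1.28, standard error 0.52, adjusted p = 0.0494), a call lost without any 1 of ID_1527, ID_1528, ID_1529, ID_1530, ID_1531, ID_1532, ID_1534, ID_1535, ID_1538, ID_1539, ID_1541, ID_1542, ID_1543, ID_1545 and ID_1546 (adjusted p of up to 0.104) and after median-ratio, quantile or trimmed-mean scaling, and without the level filter. Mmp27, whose gene begins 2910 bases after the end of Mmp8, was at 0.96, 7.58 and 3.53 TPM in Scl-cGVHD IgG mice, against 14.9, 13.5 and 13.5 TPM in syngeneic IgG mice. Under the mAb, Mmp27 stood at 1.06, 14.4 and 1.65 TPM at 0.5 mg and 2.36, 2.96, 3.19, 1.16 and 1.77 TPM at 1 mg, against 20.3, 19.1, 20.5, 4.58 and 6.47 TPM in syngeneic mAb mice. The groups did not overlap within either pair, and ID_1540 was again at the syngeneic level. Mmp27 fell in mAb mice (log2 fold change -2.03, standard error 0.53, adjusted p = 0.00767) and over all mice (log2 fold change -1.84, standard error 0.40, adjusted p = 0.00138), and did not pass in IgG mice (log2 fold change -1.82, standard error 0.68, adjusted p = 0.0598). The adjacent Mmp8 and Mmp27 thus had fold changes of opposite sign in both pairs.

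The 2 gelatinases moved in opposite directions. Mmp9, gelatinase B, which leukocytes and keratinocytes make, was at 39.2, 249 and 43.2 TPM in Scl-cGVHD IgG mice, against 9.06, 8.34 and 8.07 TPM in syngeneic IgG mice. In the mAb groups Mmp9 was at 59.8, 7.36 and 20.2 TPM (0.5 mg) and 35.8, 50.8, 88.2, 66.8 and 42.9 TPM (1 mg), against 10.3, 9.70, 13, 4.01 and 6.61 TPM in syngeneic mAb mice. Every Scl-cGVHD mouse except ID_1540 lay above every syngeneic mouse. The fold change on the log2 scale of Mmp9 was 3.01 (standard error 0.67, adjusted p = 0.00575) in IgG mice and 2.59 (standard error 0.52, adjusted p = 0.0016) in mAb mice. Mmp2, gelatinase A, made mostly by fibroblasts, was at 77.7, 313 and 115 TPM in Scl-cGVHD IgG mice, against 402, 394 and 409 TPM in syngeneic IgG mice. Mmp2 in the mAb groups was at 100.3, 336 and 125 TPM (0.5 mg) and 162, 131, 113, 104 and 66.8 TPM (1 mg), against 382, 393, 379, 182 and 302 TPM in syngeneic mAb mice. Scl-cGVHD mice were lower within both pairs without overlap, and ID_1540 and ID_1537 were the highest of the 11. Mmp2 fell, with a fold change on the log2 scale of -1.50 (standard error 0.48, adjusted p = 0.0306) in IgG mice and -1.50 (standard error 0.37, adjusted p = 0.00555) in mAb mice. The call in IgG mice was lost without any 1 of ID_1527, ID_1528, ID_1529, ID_1535 and ID_1538 (adjusted p of up to 0.122), after median-ratio or trimmed-mean scaling, without the level filter, and when the fit held only the compared groups.

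Among the membrane-bound MMPs, Mmp14 (MT1-MMP), which activates the Mmp2 precursor on the cell surface, was at 75.5, 248 and 139 TPM in Scl-cGVHD IgG mice, against 203, 219 and 157 TPM in syngeneic IgG mice. Mmp14 was at 105, 138 and 76.6 TPM at 0.5 mg and 115, 77.6, 128, 77.4 and 91.6 TPM at 1 mg, against 215, 213, 163, 126 and 167 TPM in syngeneic mAb mice. ID_1537 was the highest of all 19 mice and ID_1535 the lowest, so that the IgG groups overlapped widely. Mmp14 fell in mAb mice (log2 fold change -0.85, standard error 0.26, adjusted p = 0.0192) and did not pass in IgG mice (log2 fold change -0.47, standard error 0.34, adjusted p = 0.306), and the call in mAb mice was lost after median-ratio or trimmed-mean scaling. Mmp15 (MT2-MMP) was at 4.21, 3.18 and 3.96 TPM in Scl-cGVHD IgG mice, against 11, 10.01 and 8.97 TPM in syngeneic IgG mice. Mmp15 was at 2.17, 8.13 and 4.37 TPM at 0.5 mg and 5.78, 7.44, 3.70, 4.09 and 2.30 TPM at 1 mg, against 10.2, 12.7, 8.55, 6.43 and 7.87 TPM in syngeneic mAb mice. All 3 Scl-cGVHD IgG mice were below the syngeneic IgG mice, while ID_1543 at 1 mg and ID_1540 at 0.5 mg reached the syngeneic range. Mmp15 fell in both pairs, with a fold change on the log2 scale of -1.20 (standard error 0.35, adjusted p = 0.0223) in IgG mice and -0.88 (standard error 0.27, adjusted p = 0.0195) in mAb mice. These calls were lost without any 1 of ID_1527, ID_1528 and ID_1537 in IgG mice (adjusted p of up to 0.0737) and without any 1 of ID_1531 and ID_1546 in mAb mice (up to 0.0563), and in mAb mice also after quantile normalization. Mmp17 and Mmp25, anchored to the membrane by a lipid, did not pass in either pair and reached at most 2.27 TPM and 3.05 TPM in any mouse.

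Of the remaining MMPs, Mmp19, which cleaves basement membrane proteins, was at 20.7, 82.3 and 17.9 TPM in Scl-cGVHD IgG mice, against 12.7, 14.1 and 10.4 TPM in syngeneic IgG mice. Mmp19 was at 10.8, 11.2 and 24.4 TPM at 0.5 mg and 12.9, 12.3, 22, 8.15 and 17 TPM at 1 mg, against 12.9, 13.6, 9.29, 8.60 and 8.53 TPM in syngeneic mAb mice. The IgG groups did not overlap, with or without ID_1537, which was the highest of all mice, while the mAb groups did. Mmp19 rose in IgG mice just past the threshold (log2 fold change 1.28, standard error 0.45, adjusted p = 0.0478), a call lost without any 1 of ID_1527, ID_1528, ID_1529, ID_1530, ID_1531, ID_1532, ID_1533, ID_1534, ID_1537, ID_1542 and ID_1543 (adjusted p of up to 0.255, with a fold change on the log2 scale of 0.60 without ID_1537), without the level filter or when the fit held only the compared groups, and did not pass in mAb mice (log2 fold change 0.37, standard error 0.35, adjusted p = 0.407). Mmp23, an MMP with a transmembrane anchor and no hemopexin domain, was at 3.12, 15.2 and 3.24 TPM in Scl-cGVHD IgG mice, against 44.7, 36.4 and 41.3 TPM in syngeneic IgG mice. Mmp23 was at 3.77, 38.7 and 9.62 TPM at 0.5 mg and 7.84, 11.4, 4.18, 7.79 and 2.98 TPM at 1 mg, against 44.9, 48, 42.3, 21.3 and 30.2 TPM in syngeneic mAb mice. Except for ID_1540, every Scl-cGVHD mouse was below every syngeneic mouse. Its fold change on the log2 scale was -2.67 (standard error 0.64, adjusted p = 0.00835) in IgG mice and -2.35 (standard error 0.49, adjusted p = 0.0021) in mAb mice. Mmp11 (stromelysin 3) and Mmp28 (epilysin of keratinocytes) did not pass in either pair, with log2 fold changes in IgG mice of 0.83 (standard error 0.57, adjusted p = 0.286) and -0.95 (standard error 0.55, adjusted p = 0.201).

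**Figure D3:**
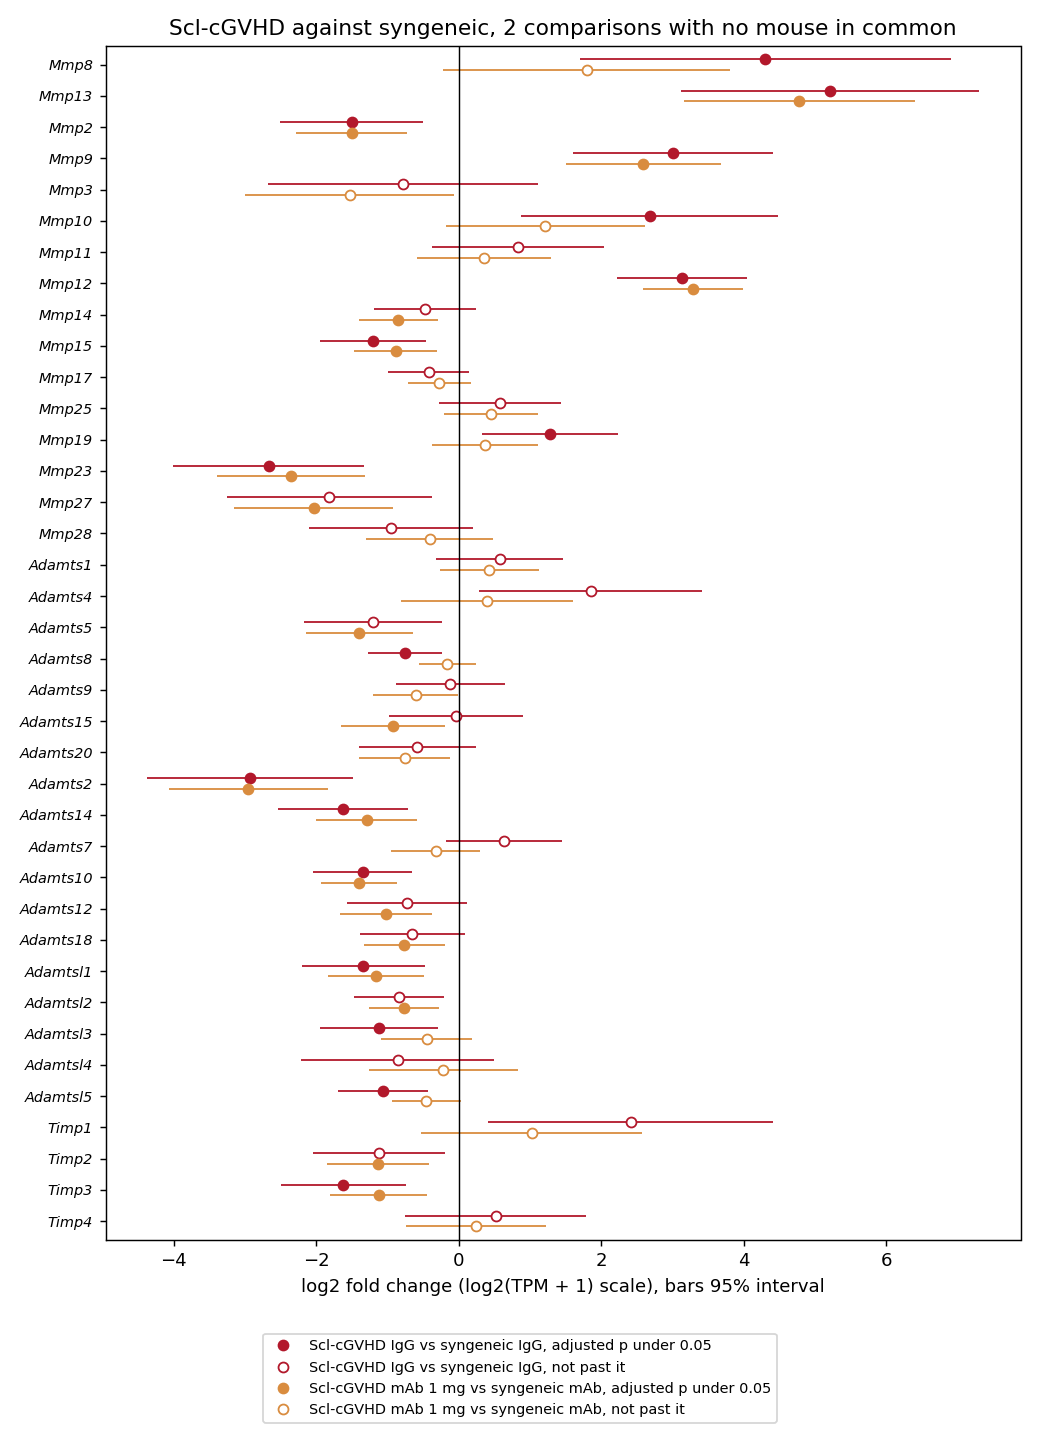
The horizontal axis gives the fold change on the log2 scale of Scl-cGVHD over syngeneic mice with its 95% interval for the 38 tested members (rows), in IgG mice and in mAb mice (1 mg), and filled points pass an adjusted p of 0.05. Mmp12 (3.13 and 3.29), Mmp13 (5.21 and 4.78) and Mmp9 (3.01 and 2.59) lie far to the right in both, and Adamts2 (-2.93 and -2.95) and Mmp23 (-2.67 and -2.35) far to the left.

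No ADAMTS or ADAMTS-like member rose in either pair, and 7 of 18 fell in IgG mice and 9 of 18 in mAb mice, where 17.9% and 28.3% of all genes fell. Adamts2, the protease that removes the amino-terminal propeptide of procollagens and whose loss makes skin fragile, was at 2.30, 16.1 and 6.85 TPM in Scl-cGVHD IgG mice, against 66.6, 50.4 and 55.1 TPM in syngeneic IgG mice. Adamts2 was at 3.45, 40.1 and 7.23 TPM at 0.5 mg and 8.95, 7.06, 4.86, 3.34 and 4.19 TPM at 1 mg, against 77.4, 75.6, 58.8, 26.4 and 28.9 TPM in syngeneic mAb mice. Only ID_1540 among the 11 Scl-cGVHD mice reached the syngeneic range. On the log2 scale the fold change was -2.93 (standard error 0.68, adjusted p = 0.00755) in IgG mice and -2.95 (standard error 0.53, adjusted p = 0.000816) in mAb mice, the largest decrease of the family in both. Adamts14, which shares this activity, was at 1.32, 1.93 and 0.75 TPM in Scl-cGVHD IgG mice, against 5.95, 5.42 and 6.88 TPM in syngeneic IgG mice. Adamts14 was at 0.92, 5.07 and 2.26 TPM at 0.5 mg and 1.50, 4.10, 1.27, 1.51 and 0.49 TPM at 1 mg, against 7.67, 7.10, 6.41, 2.99 and 3.54 TPM in syngeneic mAb mice. ID_1540 and ID_1543 reached the syngeneic mice with the most hair keratin, and the other 9 lay lower. Adamts14 fell, with a fold change on the log2 scale of -1.63 (standard error 0.43, adjusted p = 0.014) in IgG mice, a call lost without ID_1538 (adjusted p = 0.0545), and of -1.29 (standard error 0.34, adjusted p = 0.00769) in mAb mice. The third of these proteases, Adamts3, did not pass the filter (at most 0.19 TPM).

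Among the proteases of proteoglycans, Adamts5, a main aggrecanase that also cuts versican, was at 2.09, 11.1 and 4.67 TPM in Scl-cGVHD IgG mice, against 12.1, 16.6 and 10.3 TPM in syngeneic IgG mice. Adamts5 was at 4.04, 12.7 and 3.34 TPM at 0.5 mg and 5.26, 4.54, 3.39, 2.99 and 2.10 TPM at 1 mg, against 16.2, 13.2, 10.1, 9.04 and 7.75 TPM in syngeneic mAb mice. ID_1537 and ID_1540 lay in the syngeneic range and the other 9 Scl-cGVHD mice below it. Adamts5 fell in mAb mice (log2 fold change -1.40, standard error 0.36, adjusted p = 0.00672) and did not pass in IgG mice (log2 fold change -1.21, standard error 0.46, adjusted p = 0.0623). Its neighbour Adamts1, 55056 bases away on chromosome 16, did not pass in either pair (log2 fold change 0.58, standard error 0.42, adjusted p = 0.314 in IgG mice). Adamts8 was at 0.25, 0.2 and 0.2 TPM in Scl-cGVHD IgG mice, against 0.9, 1.09 and 1.17 TPM in syngeneic IgG mice. Adamts8 was at 0.1, 1.40 and 0.69 TPM at 0.5 mg and 0.55, 0.88, 0.26, 0.54 and 0.11 TPM at 1 mg, against 0.47, 0.63, 0.61, 0.47 and 0.91 TPM in syngeneic mAb mice. It fell in IgG mice (log2 fold change -0.75, standard error 0.24, adjusted p = 0.0336), at levels around 1 TPM or less, and the call was lost without any 1 of ID_1527, ID_1535, ID_1537 and ID_1538 (adjusted p of up to 0.0834) and after quantile normalization. In mAb mice the groups overlapped (log2 fold change -0.16, standard error 0.19, adjusted p = 0.521). Adamts4 was highest in ID_1537 (24.1 TPM) and did not pass (log2 fold change 1.85, standard error 0.74, adjusted p = 0.0741 in IgG mice). Adamts9, Adamts15 and Adamts20 did not pass in IgG mice, and Adamts15 fell in mAb mice (log2 fold change -0.92, standard error 0.35, adjusted p = 0.0461), a call lost without any 1 of ID_1527, ID_1528, ID_1529, ID_1530, ID_1531, ID_1532, ID_1533, ID_1534, ID_1538, ID_1541, ID_1542, ID_1543, ID_1544, ID_1545 and ID_1546 (adjusted p of up to 0.0982) and after median-ratio, quantile or trimmed-mean scaling, without the level filter and without ID_1533 and ID_1534 together.

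Of the other ADAMTS genes, Adamts10, which binds fibrillin and whose loss causes a short-stature syndrome with stiff joints in humans, was at 5.80, 4.54 and 4.30 TPM in Scl-cGVHD IgG mice, against 11.9, 12.8 and 17.4 TPM in syngeneic IgG mice. Adamts10 was at 2.76, 11.9 and 6.82 TPM at 0.5 mg and 4.72, 5.73, 4.88, 5.02 and 2.58 TPM at 1 mg, against 13.3, 14.5, 14.6, 11.7 and 13.1 TPM in syngeneic mAb mice. Again only ID_1540 of the Scl-cGVHD mice touched the syngeneic range. Adamts10 fell, with a fold change on the log2 scale of -1.34 (standard error 0.33, adjusted p = 0.00931) in IgG mice and -1.40 (standard error 0.26, adjusted p = 0.000866) in mAb mice. Adamts12 was at 0.17, 0.56 and 0.31 TPM in Scl-cGVHD IgG mice, against 1.46, 1.91 and 0.51 TPM in syngeneic IgG mice. Adamts12 was at 0.06, 1.92 and 0.13 TPM at 0.5 mg and 0.52, 0.66, 0.15, 0.09 and 0.07 TPM at 1 mg, against 3.22, 2.27, 0.92, 1.86 and 0.52 TPM in syngeneic mAb mice. It fell in mAb mice (log2 fold change -1.02, standard error 0.31, adjusted p = 0.0173), where the groups overlapped, and did not pass in IgG mice (log2 fold change -0.73, standard error 0.40, adjusted p = 0.181). Adamts18 was at 0.16, 0 and 0.02 TPM in Scl-cGVHD IgG mice, against 0.36, 1.64 and 0.27 TPM in syngeneic IgG mice. Adamts18 was at 0.07, 0.16 and 0.03 TPM at 0.5 mg and 0.01, 0.41, 0.08, 0.05 and 0.04 TPM at 1 mg, against 0.39, 0.38, 0.26, 2.61 and 1.71 TPM in syngeneic mAb mice. The 3 mice above 1 TPM were syngeneic ID_1528, ID_1533 and ID_1534, which also held the most hair shaft keratin transcript (1421, 12996 and 8287 TPM). Adamts20 reached 1.15 TPM in ID_1528, 4.16 TPM in ID_1533 and 1.91 TPM in ID_1534, and its next highest value was 1.04 TPM in ID_1540. Adamts18 fell in mAb mice (log2 fold change -0.76, standard error 0.27, adjusted p = 0.0367), a call lost without any 1 of ID_1542, ID_1544, ID_1545 and ID_1546 (adjusted p of up to 0.0706), after median-ratio, quantile or trimmed-mean scaling, without the level filter or when the fit held only the compared groups, and did not pass in IgG mice (log2 fold change -0.65, standard error 0.35, adjusted p = 0.175).

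The ADAMTS-like genes encode proteins without a protease domain. Adamtsl1 was at 1.06, 1.70 and 1.66 TPM in Scl-cGVHD IgG mice, against 5.38, 4.98 and 5.27 TPM in syngeneic IgG mice. Adamtsl1 was at 2.36, 7.10 and 1.67 TPM at 0.5 mg and 3.11, 3.32, 1.52, 2.0 and 0.49 TPM at 1 mg, against 7.77, 5.97, 7.47, 3.55 and 3.72 TPM in syngeneic mAb mice. Both pairs were separated without overlap. It fell, with a fold change on the log2 scale of -1.34 (standard error 0.41, adjusted p = 0.0269) in IgG mice, a call lost without any 1 of these 6 mice (adjusted p of up to 0.0746) and after quantile normalization, and of -1.16 (standard error 0.32, adjusted p = 0.0104) in mAb mice. Adamtsl5, which binds fibrillin, was at 22.3, 16.7 and 20.7 TPM in Scl-cGVHD IgG mice, against 42.9, 37 and 47.8 TPM in syngeneic IgG mice. Adamtsl5 was at 17.4, 34.8 and 29.1 TPM at 0.5 mg and 31.4, 27.8, 22.6, 28.9 and 18.2 TPM at 1 mg, against 44.1, 40.7, 50.1, 21.4 and 27.2 TPM in syngeneic mAb mice. The IgG groups were separate, and the mAb groups overlapped through ID_1533 and ID_1534. Adamtsl5 fell in IgG mice (log2 fold change -1.06, standard error 0.30, adjusted p = 0.0178), a call lost without any 1 of ID_1527, ID_1529 and ID_1537 (adjusted p of up to 0.0672) and after median-ratio or trimmed-mean scaling.

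Adamtsl3 was at 0.24, 0.12 and 0.32 TPM in Scl-cGVHD IgG mice, against 1.97, 1.57 and 1.47 TPM in syngeneic IgG mice. Adamtsl3 was at 0.11, 1.38 and 0.51 TPM at 0.5 mg and 0.89, 1.26, 0.28, 0.3 and 0.66 TPM at 1 mg, against 3.81, 1.62, 1.44, 0.46 and 0.25 TPM in syngeneic mAb mice. The IgG groups were separate and the mAb groups were not. It fell in IgG mice (log2 fold change -1.12, standard error 0.39, adjusted p = 0.0455), and the call was lost without any 1 of ID_1527, ID_1528, ID_1529, ID_1531, ID_1532, ID_1535, ID_1537, ID_1538, ID_1541, ID_1542, ID_1544 and ID_1545 (adjusted p of up to 0.124), after median-ratio, quantile or trimmed-mean scaling, and without the level filter. Adamtsl2, which binds fibrillin and latent TGF-beta complexes, was at 1.62, 0.25 and 0.75 TPM in Scl-cGVHD IgG mice, against 2.11, 1.56 and 3.06 TPM in syngeneic IgG mice. Adamtsl2 was at 2.49, 1.63 and 1.10 TPM at 0.5 mg and 0.25, 0.59, 0.43, 1.18 and 0.24 TPM at 1 mg, against 2.34, 1.56, 0.87, 1.49 and 1.73 TPM in syngeneic mAb mice. Both pairs overlapped, through ID_1535 in IgG mice and ID_1545 and ID_1532 in mAb mice. It fell in mAb mice (log2 fold change -0.76, standard error 0.23, adjusted p = 0.0177), a call lost after median-ratio, quantile or trimmed-mean scaling and without ID_1533 and ID_1534 together, and narrowly did not pass in IgG mice (log2 fold change -0.83, standard error 0.30, adjusted p = 0.0516). Adamtsl4 did not pass in either pair (log2 fold change -0.86, standard error 0.64, adjusted p = 0.323 in IgG mice).

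The 4 inhibitors did not move as 1 group. Timp3, which binds to the matrix and inhibits ADAMTS proteases as well as MMPs, was at 47.9, 29.2 and 61.4 TPM in Scl-cGVHD IgG mice, against 126, 144 and 145 TPM in syngeneic IgG mice. Timp3 was at 38.1, 142 and 85.5 TPM at 0.5 mg and 92.8, 104, 50.2, 56.2 and 34.3 TPM at 1 mg, against 167, 148, 133, 136 and 105 TPM in syngeneic mAb mice. Scl-cGVHD mice were lower without overlap in both pairs, and ID_1540 lay at the syngeneic level. Timp3 fell, with a fold change on the log2 scale of -1.62 (standard error 0.42, adjusted p = 0.0118) in IgG mice, a call lost without ID_1537 (adjusted p = 0.0571), and of -1.12 (standard error 0.32, adjusted p = 0.0133) in mAb mice. Timp2, which together with Mmp14 activates the Mmp2 precursor, was at 92.3, 272 and 179 TPM in Scl-cGVHD IgG mice, against 397, 328 and 354 TPM in syngeneic IgG mice. Timp2 was at 114, 314 and 104 TPM at 0.5 mg and 164, 155, 161, 110.5 and 110.0 TPM at 1 mg, against 449, 412, 398, 185 and 192 TPM in syngeneic mAb mice. The groups of both pairs were separate, and the gap in mAb mice was narrow, with ID_1533 and ID_1534 low. Timp2 fell in mAb mice (log2 fold change -1.14, standard error 0.34, adjusted p = 0.0164), a call lost after median-ratio or trimmed-mean scaling, and did not pass in IgG mice (log2 fold change -1.11, standard error 0.44, adjusted p = 0.0708).

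Timp1, a secreted inhibitor that inflammatory signals induce, was at 13.2, 635 and 25 TPM in Scl-cGVHD IgG mice, against 7.55, 17.9 and 8.60 TPM in syngeneic IgG mice. Timp1 was at 29.9, 16.7 and 26.3 TPM at 0.5 mg and 25.5, 19.1, 30.8, 22.5 and 25 TPM at 1 mg, against 6.24, 8.66, 7.08, 18.3 and 26.3 TPM in syngeneic mAb mice. ID_1537 held far more Timp1 than any other mouse, and the other 10 Scl-cGVHD mice overlapped with the syngeneic mice in both pairs. Timp1 rose only over all 11 Scl-cGVHD against all 8 syngeneic mice (log2 fold change 1.49, standard error 0.55, adjusted p = 0.0325), a call lost without any 1 of ID_1527, ID_1529, ID_1530, ID_1531, ID_1532, ID_1539 and ID_1541 (adjusted p of up to 0.0762), and did not pass in IgG mice (log2 fold change 2.42, standard error 0.94, adjusted p = 0.0702) or mAb mice (log2 fold change 1.02, standard error 0.73, adjusted p = 0.273). Timp4 was at 9.94, 4.88 and 35.8 TPM in Scl-cGVHD IgG mice, against 7.53, 8.34 and 9.14 TPM in syngeneic IgG mice. Timp4 was at 7.36, 8.67 and 9.46 TPM at 0.5 mg and 9.75, 3.29, 9.28, 2.15 and 6.21 TPM at 1 mg, against 9.60, 6.42, 5.53, 1.45 and 2.69 TPM in syngeneic mAb mice. ID_1538, the highest in Timp4, also held 3210.0 TPM of adipocyte markers, against 317 and 732 TPM in the other 2 Scl-cGVHD IgG mice. The groups overlapped in both pairs, and Timp4 did not pass (log2 fold change 0.52, standard error 0.60, adjusted p = 0.53 in IgG mice and log2 fold change 0.24, standard error 0.47, adjusted p = 0.694 in mAb mice).

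Sums over the members show how the mixture of transcripts differed, as a description without a test. The 22 MMP genes summed to 968 TPM ± 912 (n = 3, SD) in Scl-cGVHD IgG mice, against 821 TPM ± 46.7 (n = 3, SD) in syngeneic IgG mice. Under the mAb the MMP sum was 515 TPM ± 161 (n = 5, SD) at 1 mg, against 709.8 TPM ± 182 (n = 5, SD) in syngeneic mAb mice. The spread in Scl-cGVHD IgG mice was almost as large as the mean, with 2015.8 TPM in ID_1537 alone. Mmp2 was the most abundant MMP of syngeneic skin and made up a smaller part of the sum in Scl-cGVHD IgG and 1 mg mice. Its share was 19.7% ± 3.63 (n = 3, SD) in Scl-cGVHD IgG mice, against 49% ± 3.50 (n = 3, SD) in syngeneic IgG mice. At 0.5 mg the Mmp2 share was 20.4%, 51.1% and 35.7%, with ID_1540 in the syngeneic range. At 1 mg it was 23.5% ± 8.13 (n = 5, SD), against 45.9% ± 2.77 (n = 5, SD) in syngeneic mAb mice. The 4 TIMP genes summed to 469 TPM ± 415 (n = 3, SD) in Scl-cGVHD IgG mice, against 518 TPM ± 20.1 (n = 3, SD) in syngeneic IgG mice, and to 238 TPM ± 52.7 (n = 5, SD) at 1 mg, against 484 TPM ± 141 (n = 5, SD) in syngeneic mAb mice. The ratio of the MMP to the TIMP sum was 2.03 ± 0.217 (n = 3, SD) in Scl-cGVHD IgG mice, against 1.59 ± 0.0839 (n = 3, SD) in syngeneic IgG mice, without overlap. At 1 mg it was 2.20 ± 0.628 (n = 5, SD), against 1.49 ± 0.27 (n = 5, SD) in syngeneic mAb mice, with overlap. At 0.5 mg the ratio was 2.59 in ID_1539, 1.37 in ID_1540 and 1.55 in ID_1541. The values of ID_1540 and ID_1541 lay within the range of syngeneic mAb mice (1.26 to 1.94). The 19 ADAMTS genes summed to 86.6 TPM ± 48.8 (n = 3, SD) in Scl-cGVHD IgG mice, against 129 TPM ± 5.30 (n = 3, SD) in syngeneic IgG mice.

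The IgG and the mAb comparison of Scl-cGVHD with syngeneic skin have no mouse in common. Both draw their error from 1 fit of all 19 mice, so calls in each also depend on mice of the other. Of the 17 members called in IgG mice, all 17 had the same sign in mAb mice and 11 were called there too, 3 higher (Mmp9, Mmp12 and Mmp13) and 8 lower (Mmp2, Mmp15, Mmp23, Adamts2, Adamts10, Adamts14, Adamtsl1 and Timp3), with 0 called in opposite directions. The 11 are 64.7% of the calls in IgG mice and 57.9% of the 19 in mAb mice, where over all tested genes 74.7% of the calls in IgG mice and 50.8% of those in mAb mice were called in the same direction in both. Over the 38 members, 37 had the same sign in both, and Pearson's r of their log2 fold changes was 0.94 and Spearman's rho 0.89, given as a description because members share the libraries and are not independent. Over all tested genes 85% had the same sign in both (98.9% of those called in IgG mice), with r of 0.86 and rho of 0.79. Adamts7 was the exception (log2 fold change 0.64 in IgG mice and -0.32 in mAb mice, not called in either). Of the 17 calls, 6 held under every alternative of processing and without each mouse in turn in the IgG, the mAb and the all-mouse comparison: Mmp9, Mmp12 and Mmp13 higher, and Mmp23, Adamts2 and Adamts10 lower. Mmp13 is among those that reached the level filter through Scl-cGVHD mice alone.

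The 12 members below the filter were low throughout. Mmp1b, a collagenase gene with a related gene (Mmp1a) that may take some of its reads, had its highest value in ID_1537 (2.73 TPM). It was listed at 0 in all 8 syngeneic mice and was at most 0.98 TPM in the other Scl-cGVHD mice. Adamts17 reached 1.33 TPM in ID_1528. The highest values of the rest were 0.92 TPM for Mmp16, 0.85 TPM for Adamts19, 0.62 TPM for Adamts13, 0.52 TPM for Adamts6, 0.19 TPM for Mmp20, 0.19 TPM for Adamts3, 0.11 TPM for Adamts16, 0.08 TPM for Mmp24, 0.08 TPM for Mmp21 and 0.07 TPM for Mmp7. Adamts13 and Adamts19 had their highest value in ID_1533, the mouse with the most hair keratin transcript.

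The second question was whether the antibody changed these levels. In Scl-cGVHD mice, limma called 0 of 38 members at 0.5 mg against IgG, where 0.055% of all genes were called, and 0 at 1 mg, where 0% were. At an unadjusted p under 0.05 the counts were 6 members at 0.5 mg (14.5% of all genes) and 4 at 1 mg (10.2% of all genes). All of these were below 0, at 0.5 mg Mmp8, Mmp9, Mmp10, Mmp13, Mmp19 and Adamts7, and at 1 mg Mmp8, Mmp19, Adamts7 and Adamts15. Mmp8 had the smallest p at 0.5 mg, with 0.46 ± 0.366 TPM (n = 3, SD), against 103 ± 161 TPM (n = 3, SD) in IgG mice (log2 fold change -4.04, 95% interval -6.64 to -1.44, adjusted p = 0.169). All 3 mice at 0.5 mg lay below the 3 IgG mice for Mmp8, as they did for 6.88% of all genes. Mmp13 averaged 20.4 ± 29.7 TPM (n = 3, SD) at 0.5 mg, against 80.5 ± 85.3 TPM (n = 3, SD) in IgG mice, with overlap through ID_1539 (log2 fold change -2.74, 95% interval -4.83 to -0.65, adjusted p = 0.217). Mmp9 averaged 29.1 ± 27.3 TPM (n = 3, SD) at 0.5 mg, against 110.5 ± 120.0 TPM (n = 3, SD) in IgG mice (log2 fold change -1.79, 95% interval -3.19 to -0.38, adjusted p = 0.227). At 1 mg, Mmp19 had the smallest p, with 14.5 ± 5.24 TPM (n = 5, SD), against 40.3 ± 36.4 TPM (n = 3, SD) in IgG mice (log2 fold change -1.14, 95% interval -1.99 to -0.28, adjusted p = 0.358). Mmp8 averaged 5.94 ± 8.60 TPM (n = 5, SD) at 1 mg, with overlap with IgG mice (log2 fold change -2.59, 95% interval -4.91 to -0.26, adjusted p = 0.43). Mmp12 averaged 99.3 ± 52.1 TPM (n = 5, SD) at 1 mg, against 84.2 ± 20.9 TPM (n = 3, SD) in IgG mice, and the interval spans 0 (log2 fold change 0.09, 95% interval -0.72 to 0.90, adjusted p = 0.987). Timp3 had intervals that span 0 at both doses (log2 fold change 0.80, 95% interval -0.08 to 1.67, adjusted p = 0.398 at 0.5 mg and log2 fold change 0.49, 95% interval -0.30 to 1.27, adjusted p = 0.735 at 1 mg). A p that misses the threshold does not show equal levels, and the intervals of single members are wide. The error behind these p and intervals was shared over all 5 groups. In syngeneic mice Mmp8, Mmp10 and Mmp13 reached at most 0.23, 0.04 and 0.59 TPM, so their low spread enters it. For Mmp8, the Scl-cGVHD IgG mice ranged from 1.27 to 288 TPM. These intervals thus do not give the spread of the compared mice alone.

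These values depended on single IgG mice. Without ID_1537, the fold change on the log2 scale of Mmp8 was -2.23 at 0.5 mg and -0.78 at 1 mg, and those at 1 mg of Mmp9 (0.39), Mmp13 (0.39) and Timp1 (0.39) changed sign. Without ID_1535, limma called 4 members lower at each dose: Mmp8, Mmp10, Adamts7 and Adamts15. Over all 16324 genes then tested, 545 (3.34%) were called lower and 271 (1.66%) higher at 0.5 mg, and 329 (2.02%) lower and 338 (2.07%) higher at 1 mg. Mmp8 then had a fold change on the log2 scale of -5.73 (adjusted p = 0.00978) at 0.5 mg and -4.27 (adjusted p = 0.0205) at 1 mg, and Adamts15 of -1.62 (adjusted p = 0.0112) at 1 mg. Without ID_1539, 1 member was called lower at 0.5 mg, Mmp13 (-4.12, adjusted p = 0.027), as were 77 (0.472%) of all 16305 genes then tested, with 149 (0.914%) higher. Both doses are set against the same 3 IgG mice, so their values are not independent of each other. Between the doses, 1 mg against 0.5 mg, 0 members were called and 4 had an unadjusted p under 0.05 (5.29% of all genes, 0% called). Mmp13 averaged 49.6 ± 45.2 TPM (n = 5, SD) at 1 mg, against 20.4 ± 29.7 TPM (n = 3, SD) at 0.5 mg (log2 fold change 2.28, 95% interval 0.41 to 4.14, adjusted p = 0.925). In syngeneic mice, mAb against IgG, 0 members were called and 0 had an unadjusted p under 0.05 (0% and 0.703% of all genes). The response to the antibody in Scl-cGVHD mice at 1 mg did not differ detectably from that in syngeneic mice for any member (0 called, 0 at an unadjusted p under 0.05, against 0% and 3.56% of all genes). For Mmp8 that difference was -2.51 (95% interval -5.80 to 0.79).

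**Figure D4:**
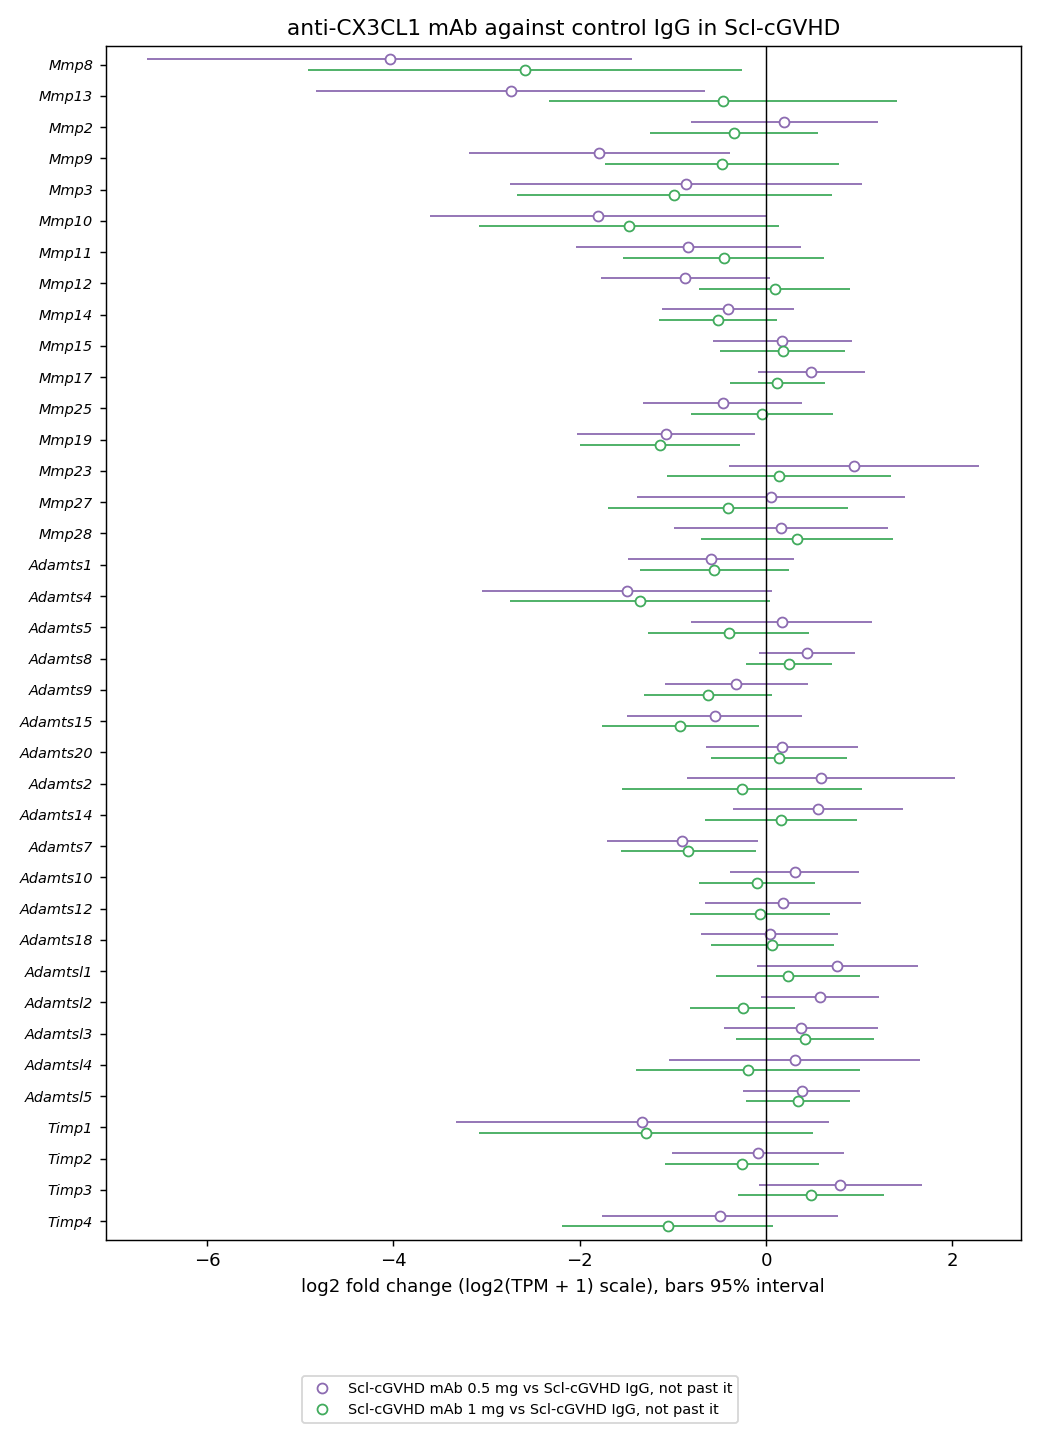
The horizontal axis gives the log2 fold change over Scl-cGVHD IgG mice with its 95% interval for the 38 tested members (rows), at 0.5 mg and at 1 mg of the mAb. All points are open because 0 members passed an adjusted p of 0.05, and Mmp8 (-4.04 and -2.59) lies farthest to the left.

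Levels of members and of marker lists were set against each other within the 11 Scl-cGVHD mice, which pool 3 treatments because a single group holds too few mice for a correlation. The 26 members with values for every mouse under the rule for named genes and 4 marker lists gave 104 relations, with p-values from 100000 permutations adjusted over the 104. Both Pearson's and Spearman's adjusted p were under 0.05 in 16. With the 10 neutrophil markers, Mmp8, Mmp10 and Mmp13 varied together. For Mmp8, Pearson's r was 0.97 (permutation p = 1e-05, adjusted p = 0.000347) and Spearman's rho 0.96 (permutation p = 2e-05, adjusted p = 0.00104), where 1e-05 is the smallest p these permutations can give, and r was 0.96 without ID_1537 and ID_1544, the 2 mice farthest from the median of that list. For Mmp10 and Mmp13, r was 0.88 and 0.78, or 0.78 and 0.63 without those mice. Of these markers, S100a8 is also in the activated keratinocyte list.

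With the 8 fibroblast markers, Mmp2, Mmp23, Adamts2, Adamts5, Adamts12 and Adamts14 varied together, with Pearson's r of 0.84 to 0.96 and Spearman's rho of 0.77 to 0.97. For Mmp2, Pearson's r was 0.94 (permutation p = 1e-05, adjusted p = 0.000347) and Spearman's rho 0.97 (permutation p = 1e-05, adjusted p = 0.00104), and r was 0.91 without ID_1537 and ID_1540. The other 5 kept r of 0.70 to 0.87 without those mice. With the 9 activated keratinocyte markers, Mmp13 varied in the same direction (r = 0.86) and Mmp15, Adamts8, Adamts10, Adamts14, Adamtsl5 and Timp3 in the opposite one (r of -0.98 to -0.85). For Timp3, Pearson's r was -0.90 (permutation p = 8e-05, adjusted p = 0.00119) and Spearman's rho -0.94 (permutation p = 0.0001, adjusted p = 0.00173), and r was -0.83 without ID_1540 and ID_1543. With the 10 macrophage markers, 0 relations passed by both measures, and Mmp12 had r = 0.57 and rho = 0.53 (adjusted p = 0.146 and 0.217, permutation test), or r = 0.81 without ID_1537 and ID_1538. By Pearson's r alone 6 passed, and for Mmp8, the strongest of them, Pearson's r was 0.93 (permutation p = 0.0005, adjusted p = 0.00371) and Spearman's rho 0.67 (permutation p = 0.0271, adjusted p = 0.0888), and r was 0.76 without those mice.

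**Figure D5:**
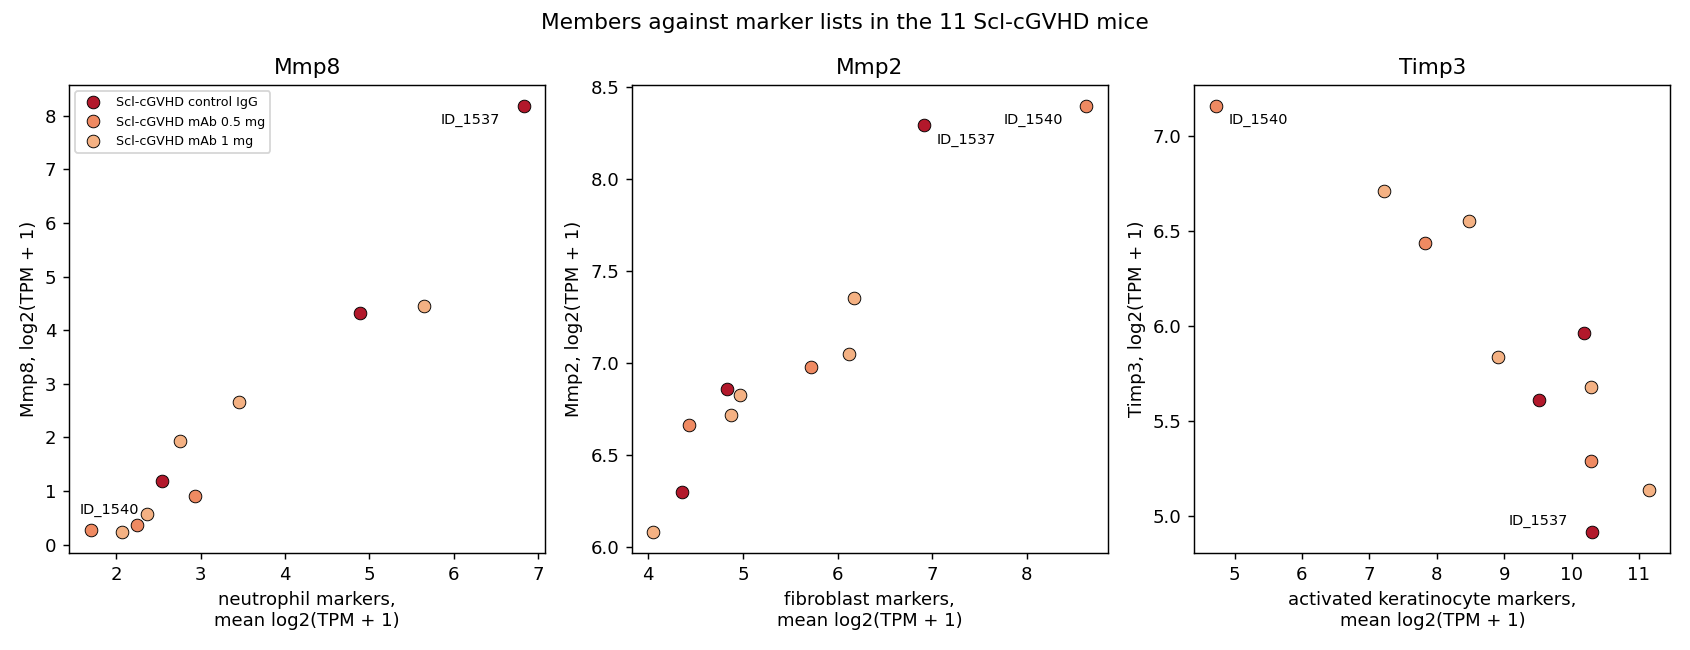
Each point is 1 of the 11 Scl-cGVHD mice, with the mean log2(TPM + 1) of a marker list on the horizontal axis and log2(TPM + 1) of a member on the vertical axis. Mmp8 increases with the neutrophil list (r = 0.97), Mmp2 with the fibroblast list (r = 0.94), and Timp3 decreases with the activated keratinocyte list (r = -0.90). ID_1537 and ID_1540 are labelled.

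Other genes of matrix proteolysis were described from 4 lists. Of 6 tested genes of the plasminogen system, which can activate MMP precursors, 2 rose and 1 fell in Scl-cGVHD IgG mice, against syngeneic IgG mice, where 6.84% of all genes rose and 17.9% fell. The receptor Plaur averaged 157 TPM in Scl-cGVHD IgG mice, against 7.16 TPM in syngeneic IgG mice (log2 fold change 3.49, standard error 0.72, adjusted p = 0.00377). The inhibitor Serpinb2 averaged 261 TPM in Scl-cGVHD IgG mice, against 52.2 TPM in syngeneic IgG mice (log2 fold change 2.27, standard error 0.39, adjusted p = 0.00159). Serpinf2, an inhibitor of plasmin, fell (log2 fold change -1.02, standard error 0.26, adjusted p = 0.0106). In mAb mice, 2 of the 6 rose and 2 fell, where 7.99% of all genes rose and 28.3% fell. Of 9 tested ADAM and astacin proteases, 1 rose in IgG mice and 0 fell. That was Adam8, a protease of leukocytes, with a mean of 120.1 TPM in Scl-cGVHD IgG mice, against 7.56 TPM in syngeneic IgG mice (log2 fold change 3.47, standard error 0.49, adjusted p = 0.000412). Bmp1, which removes the carboxy-terminal propeptide of procollagens, fell in mAb mice (log2 fold change -1.28, standard error 0.34, adjusted p = 0.00804) and did not pass in IgG mice (log2 fold change -0.75, standard error 0.43, adjusted p = 0.206).

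Among 7 cathepsins and serine proteases, 2 rose and 3 fell in IgG mice, beside the 6.84% and 17.9% of all genes. Ctss, a cathepsin of antigen-presenting cells that also cuts elastin, averaged 1568 TPM in Scl-cGVHD IgG mice, against 214 TPM in syngeneic IgG mice (log2 fold change 2.84, standard error 0.34, adjusted p = 0.000129). Fap, the fibroblast activation protease, averaged 3.08 TPM in Scl-cGVHD IgG mice, against 17 TPM in syngeneic IgG mice (log2 fold change -2.15, standard error 0.45, adjusted p = 0.00405). The collagen-cutting cathepsin Ctsk also fell (log2 fold change -2.11, standard error 0.64, adjusted p = 0.0266), as did Htra1 (log2 fold change -1.33, standard error 0.32, adjusted p = 0.0085). Of 9 tested inhibitors, partners and activating proteases, 1 rose and 4 fell in IgG mice, beside the same shares of all genes. Pcolce and Pcolce2, which enhance removal of the carboxy-terminal propeptide of procollagen, both fell (log2 fold change -2.11, standard error 0.44, adjusted p = 0.00419, and log2 fold change -3.31, standard error 0.84, adjusted p = 0.012). Reck, a membrane-bound inhibitor of MMPs, averaged 2.83 TPM in Scl-cGVHD IgG mice, against 15.6 TPM in syngeneic IgG mice (log2 fold change -2.12, standard error 0.53, adjusted p = 0.0103). Furin, a convertase that activates membrane-bound MMPs, rose (log2 fold change 1.07, standard error 0.29, adjusted p = 0.0143). In mAb mice, 1 of these 9 rose and 5 fell, where 7.99% of all genes rose and 28.3% fell. Of the 7 cathepsins and serine proteases, 1 rose and 3 fell in mAb mice. Neither dose of the mAb called any gene of the 4 lists against Scl-cGVHD IgG mice, where 0.055% of all genes were called at 0.5 mg and 0% at 1 mg.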

How the data were processed

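RNA was taken from the skin of 19 mice at day 42, and stranded mRNA libraries were sequenced in pairs of 100 bases. The authors' pipeline used FastQC and Trimmomatic for the reads, STAR 2.5.2b for alignment to GRCm38, and RSEM 1.2.31 for gene levels. The deposited table holds TPM for 50686 genes, and the deposited alignment summary holds read counts per library (22699740 to 38841010 pairs). The summary does not name mice, so the depth of a single mouse is unknown. TPM are not counts, so the count test named in the study's methods (edgeR) was not run.

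The 16350 genes (38 members) that reached 1 TPM in 3 or more mice were tested on log2(TPM + 1) with limma 3.58.1 (R 4.3.3, trend and robust prior) in 1 fit of 5 groups, with Benjamini-Hochberg adjustment over all 16350 genes and a threshold of 0.05. The step was run on simulated data in which each gene had the same spread in every group. Spread differed between groups for members such as Mmp8, so that run does not show how the shared error performs here. Each mouse was 1 library. Nothing in the labels ties mice of different groups together, and limma's p-values measure the spread between mice within groups, pooled over the 5 groups. Values for every mouse are given for members called in the IgG comparison, or in both the mAb and the all-mouse comparison, and for the 4 TIMPs. Members below the filter are named with their highest value, and up to 4 genes with the smallest p in IgG mice are named per list of other proteolysis genes. In the plasminogen list 1 gene was taken out of the list and its counts after its values were seen, and is not reported here. The members and lists were chosen with earlier results of these data known. Mmp3 was added to the members with values for every mouse after its values were seen. Alternatives were other scalings, pseudocounts of 0.1, other filters and thresholds, limma without its trend and robust prior, the compared groups alone, and each mouse left out.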

Additional observations from a re-analysis of the deposited data

Results flagged for a closer look

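Within the groups of 5 mice, 52 pairs of a member and a group were searched for a mouse whose gap to the nearest other mouse, divided by the range of the group on the log2(TPM + 1) scale, exceeded Dixon's critical value of 0.71. Chance alone flags about 1 in 20 such groups, and 3 pairs passed. Mmp10 in syngeneic mAb mice had a ratio of 1.0 because ID_1530 was listed at 0.04 TPM and the other 4 mice at 0. Adamts10 at 1 mg had a ratio of 0.742, with ID_1546 the lowest at 2.58 TPM. Adamts18 at 1 mg had a ratio of 0.799, with ID_1543 the highest at 0.41 TPM. Groups of 3 mice, which include that of ID_1537, were not searched.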

How the results depend on the processing

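Of 2947 values of single members under the alternatives, 2667 kept direction and side of the threshold, 208 lost the threshold, 50 gained it and 22 changed sign. At an adjusted p under 0.01, 3 members rose and 3 fell in Scl-cGVHD IgG against syngeneic IgG mice, where 3.2% and 5.3% of all genes did. At that threshold 7 fell in 1 mg against syngeneic mAb mice (13.9% of all genes), and 3 rose over all mice (7.03% of all genes). In the IgG comparison 3 rose with the compared groups alone (6.2% of all genes) and 3 without ID_1537 and ID_1540. There 7 fell after median-ratio scaling (10.3% of all genes) and 7 after trimmed-mean scaling (9.62% of all genes). In 1 mg against syngeneic mAb mice 5 rose with a pseudocount of 0.1 (8.26% of all genes), 5 with the compared groups alone (8.38%) and 6 without ID_1537 and ID_1540. With 1 mouse left out at a time, 3 to 10 members rose and 5 to 13 fell in the IgG comparison. Without ID_1527, 3 rose and 5 fell, where 4.01% and 8.41% of all genes did. With all mice, 6.84% and 17.9% of all genes did. In 1 mg against syngeneic mAb mice 3 to 6 members rose. Against Scl-cGVHD IgG mice, 0 to 4 were lower at 1 mg and 0 to 4 at 0.5 mg. All-gene shares without ID_1535 and ID_1539 are given above for those doses. The other counts with mice left out have no all-gene share beside them, so they do not show a change particular to the members.

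Changes of sign were as follows, none of them in a called value. In the IgG comparison Adamts15 had a log2 fold change of 0.21 after median-ratio, 0.30 after quantile and 0.22 after trimmed-mean scaling, and -0.69 to 0.66 with 1 mouse left out. Mmp3 then ranged from -2.19 to 0.42 and Timp4 from -0.22 to 1.11. In 1 mg against syngeneic mAb mice Adamts8 was at 0.0203 after quantile normalization, and Timp4 at -0.32 without ID_1533 and ID_1534 and -0.0432 to 0.50 with 1 mouse left out. Without ID_1537 and ID_1540, 1 mg against Scl-cGVHD IgG gave 0.39 for Mmp9, 0.39 for Mmp13 and 0.39 for Timp1, and 0.5 mg gave 0.0129 for Mmp10 and 0.59 for Timp1. With 1 mouse left out, 1 mg against IgG ranged -0.93 to 0.39 for Mmp9, -0.15 to 0.38 for Mmp12, -1.18 to 0.39 for Mmp13 and -2.35 to 0.39 for Timp1, and 0.5 mg -2.39 to 0.35 for Timp1. The cause of these shifts was not tested. No paired analysis was possible because the labels number mice one by one and replicate numbers were given in accession order only. Groups of 3 and 5 mice limit what can be called, and levels near 0 TPM depend on the pseudocount.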

Other observations

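Immediate early genes, whose transcripts appear within minutes of a stimulus and which include the Fos and Jun subunits of AP-1, were described from a list of 8. In Scl-cGVHD IgG against syngeneic IgG mice, 7 of the 8 rose and 0 fell, where 6.84% of all genes rose. The 8 genes summed to 682 TPM in ID_1535, 3342 TPM in ID_1537 and 2074 TPM in ID_1538, against 339 to 522 TPM in syngeneic IgG mice. Syngeneic mAb mice held 369 to 681 TPM, so ID_1535 was close to the highest of them. Over all mice 3 of the 8 rose and 0 fell, where 10.5% of all genes rose. These calls were not tried with single mice left out. Fosb averaged 44.9 TPM in Scl-cGVHD IgG mice, against 2.90 TPM in syngeneic IgG mice (log2 fold change 3.23, standard error 0.73, limma adjusted p = 0.00626). Fos averaged 295 TPM in Scl-cGVHD IgG mice, against 29.9 TPM in syngeneic IgG mice (log2 fold change 3.12, standard error 0.91, limma adjusted p = 0.0231). Junb averaged 703 TPM in Scl-cGVHD IgG mice, against 137 TPM in syngeneic IgG mice (log2 fold change 2.21, standard error 0.47, limma adjusted p = 0.00474). In 1 mg against syngeneic mAb mice, 0 of the 8 rose and 1 fell, where 7.99% of all genes rose and 28.3% fell. The gene that fell was Egr1 (log2 fold change -1.09, standard error 0.36, limma adjusted p = 0.0252), and Fos averaged 23.4 TPM at 1 mg, against 57.4 TPM in syngeneic mAb mice (limma adjusted p = 0.386). Neither dose of the mAb called any of the 8 against Scl-cGVHD IgG mice.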
